A study of Mus musculus with 2 samples.

Results

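Pdcd1, Cd274 and Pdcd1lg2 encode the receptor PD-1 and its ligands PD-L1 and PD-L2. They were chosen by name, as 3 of the 18685 genes in the expression matrix of the antibody library, and their summed UMIs (unique molecular identifiers, which count captured RNA molecules) and shares of cells with a UMI were taken in each cluster the authors had named. The tumours came from male C57BL/6 wild-type mice aged 6 to 8 weeks that carried grafts of Hep1-6, a mouse hepatoma cell line. They were kept on a normal diet in specific-pathogen-free housing, and received intraperitoneal SIGLEC15 antibody or control IgG. Each group had 3 mice per the design text and 1 library, so cells of the 3 mice were pooled. Both libraries mixed cells enriched on CD45 beads, which bind leukocytes, with unsorted cells in equal parts, and were made with the 10x 3' v2 chemistry. In the IgG library 105 genes had complete rows, and 0 of the 3 genes were among them. All values below are therefore from the antibody library, and no effect of the antibody on these genes is given. With 1 library there is no replicate and no p-value. The 95% intervals are exact, cover counting error only, and do not measure the spread between mice.

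PD-1 is an inhibitory receptor that T cells place on their surface after antigen recognition and keep in chronic stimulation. When a ligand binds, its tail recruits the phosphatase SHP2, which dampens signals from CD28 and the T cell receptor. PD-L1 can be induced by interferon on many kinds of cell, tumour and myeloid cells included, whereas PD-L2 is found mainly on macrophages and dendritic cells. Antibodies that block PD-1 or PD-L1 are used in the treatment of liver cancer.

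In the mouse build GRCm38 with GENCODE release M21, Pdcd1 (ENSMUSG00000026285) lies on chromosome 1 from 94038305 to 94052553 on the minus strand, with 5 exons. Cd274 (ENSMUSG00000016496) lies on chromosome 19 from 29367455 to 29388095 on the plus strand, with 7 exons. Pdcd1lg2 (ENSMUSG00000016498) lies on chromosome 19 from 29410919 to 29471161 on the plus strand, with up to 6 exons in its 2 annotated transcripts. All 3 are protein coding. The ligand genes are neighbours on the same strand, 22823 bases apart, with 0 RefSeq genes between them.

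The 250 bases before each RefSeq start site (GRCm38, 3 of 3 genes matched) are printed because the receptor and its ligands had their highest levels in different cells, and because the neighbouring ligand genes each have their own start site. Capitals mark GGAAA on either strand, the core that NFAT proteins, which act downstream of the T cell receptor, bind. The windows are chr1:94052554-94052803 on the minus strand, chr19:29367188-29367437 on the plus strand and chr19:29410669-29410918 on the plus strand.
Pdcd1: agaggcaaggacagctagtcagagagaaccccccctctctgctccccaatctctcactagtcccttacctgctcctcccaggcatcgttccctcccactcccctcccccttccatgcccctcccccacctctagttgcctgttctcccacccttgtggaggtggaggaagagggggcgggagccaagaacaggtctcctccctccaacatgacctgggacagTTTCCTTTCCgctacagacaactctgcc
Cd274: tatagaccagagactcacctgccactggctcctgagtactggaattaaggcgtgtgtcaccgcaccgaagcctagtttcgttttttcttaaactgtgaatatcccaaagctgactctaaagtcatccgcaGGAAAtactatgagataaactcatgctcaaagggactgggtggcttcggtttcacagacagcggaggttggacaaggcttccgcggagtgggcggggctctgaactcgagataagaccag
Pdcd1lg2: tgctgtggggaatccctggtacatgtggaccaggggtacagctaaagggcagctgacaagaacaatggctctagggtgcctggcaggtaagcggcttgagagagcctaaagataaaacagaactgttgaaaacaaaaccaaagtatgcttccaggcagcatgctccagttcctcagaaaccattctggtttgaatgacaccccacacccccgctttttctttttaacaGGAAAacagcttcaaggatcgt
The Pdcd1 window held 2 matches and was 60.4% G and C. The Cd274 and Pdcd1lg2 windows held 1 match each and were 50.4% and 48.4% G and C. GGAAA was in 55.6% of the 32851 windows of the same length over all RefSeq genes. GAAA repeated after any 2 bases, the interferon-stimulated response element core, was in 2.98% of all windows and in none of these 3. The same held for TTCNNNGAA, the STAT core (7.02% of windows), TGANTCA, the AP-1 site (6.75%), and ACGTG, the hypoxia response core (16.6%). GGG followed by CC after any 5 bases, a loose NF-kB core, matched 1 stretch of the Pdcd1lg2 window, read on both strands, was not in the other windows, and was in 45.8% of all windows. Both strands were searched, and no match says only that these letters are not in the window.

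The antibody library held 5482 cells in 30 deposited clusters and 74168827 UMIs, with a median of 13714.5 UMIs per cell (553 to 46558). Depth differed by cell type, with medians of 1047 UMIs in MDSC_1 to MDSC_4 (clusters named for myeloid-derived suppressor cells), 3856.5 in the clusters CD4_T, CD8_T_1 and CD8_T_2, 6946.5 in the macrophage clusters and 20428 in the tumour clusters. Levels are given in CPM, the gene's UMIs summed over the cells of a cluster and scaled to the total UMIs of those cells. Shares of cells are also given with each cell thinned to 1000 UMIs, which leaves out cells with fewer. In a share of UMIs, fewer UMIs of 1 gene and more of all others cannot be told apart, so UMIs per cell are added where the depths differ. The authors' clusters were built from the expression of these cells, so differences between clusters are a description. A doublet caller marked 3 cells, which is too few to have worked, and the libraries shared 11 cell barcodes. Counts of cells that also hold a marker of another lineage are given beside the results below.

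Cluster names were compared with marker lists. MDSC_1 to MDSC_4 were led by neutrophil markers, which summed to 42923 CPM in MDSC_4. MDSC_5 held 987 CPM of neutrophil markers, 6996 CPM of macrophage markers and 8125 CPM of tumour markers. It is kept apart from MDSC_1 to MDSC_4. The cluster CD3_T held 4362 CPM of natural killer cell markers against 2544 CPM of T cell markers and is kept apart from the T cell clusters. Adipocyte (2 cells), B (18), MDSC_5 (37) and CD4_T (47) had under 50 cells. The cluster DC held monocyte and neutrophil markers beside dendritic cell ones, and is called by its deposited name.

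**Figure D1:**
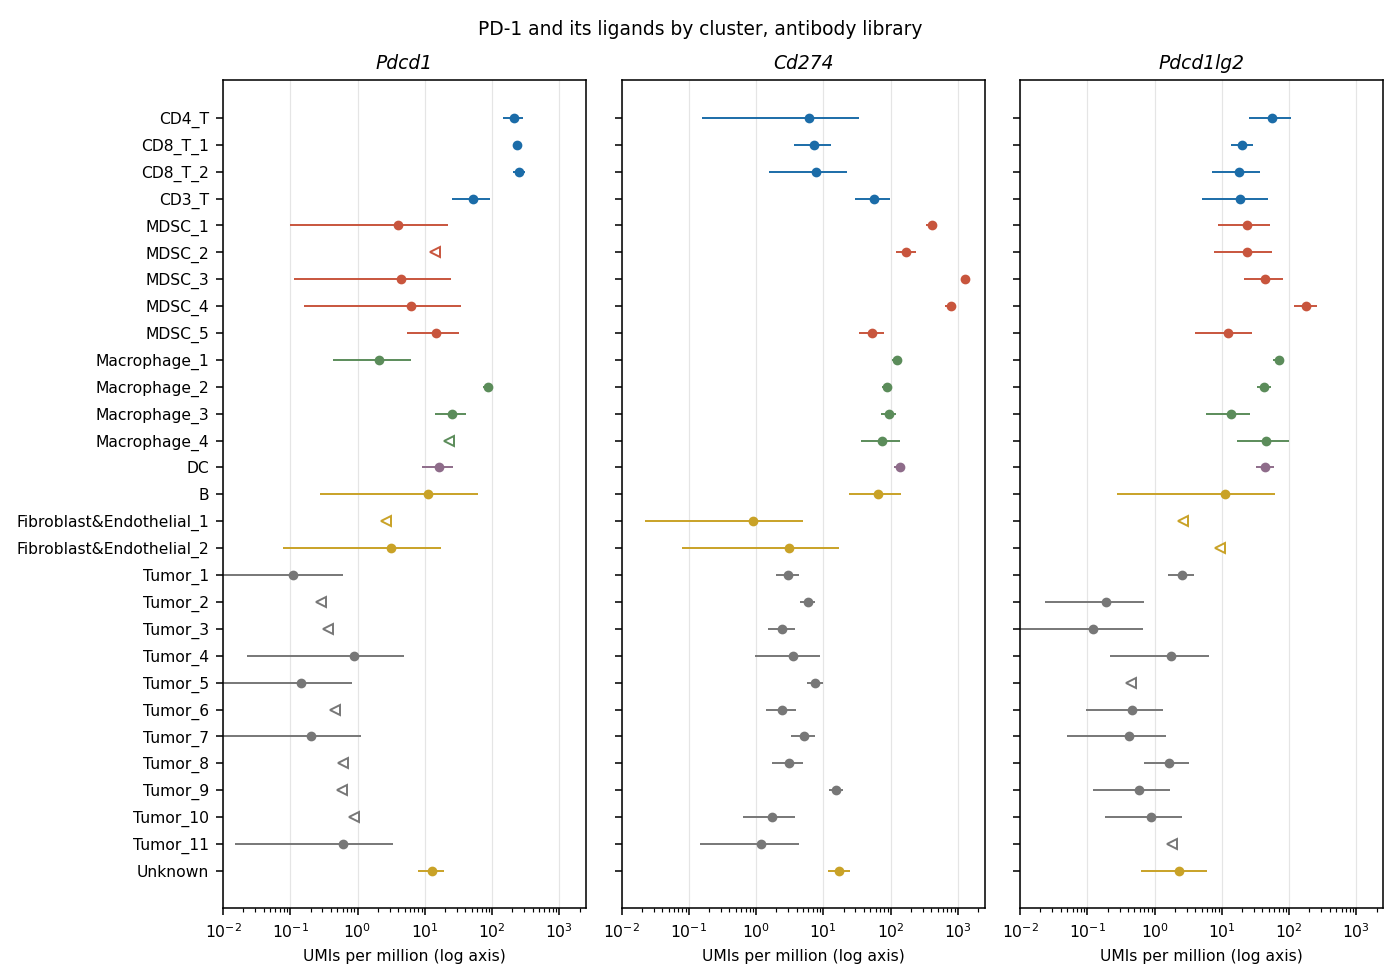
Levels of Pdcd1, Cd274 and Pdcd1lg2 in each deposited cluster of the antibody library, in CPM on a log axis, with 1 panel per gene. Filled points are levels with exact 95% Poisson intervals and open triangles mark 3 counts, for clusters with 0 UMIs. Pdcd1 was highest in the T cell clusters (210.1 to 253 CPM), Cd274 in MDSC_3 (1293 CPM) and Pdcd1lg2 in MDSC_4 (176 CPM); the axis starts at 0.01, where some intervals run off it, and Adipocyte (2 cells) is not drawn.

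Pdcd1 was concentrated in T cells. It had 722 UMIs in 348 cells, and 490 of them (67.9%) lay in the 382 cells of CD4_T, CD8_T_1 and CD8_T_2. Its level there was 239 CPM (218 to 261), against 31.9 CPM over the other immune cells, a ratio of 7.49 (6.35 to 8.87). In the tumour clusters it was 0.0800 CPM, from 5 UMIs in 3213 cells.

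The 3 T cell clusters had near levels. CD8_T_2 held 253 CPM (205 to 307), from 99 UMIs in 63 of 127 cells. CD8_T_1 held 239 CPM (215 to 265), from 357 UMIs in 146 of 208 cells. CD4_T held 210.1 CPM (145 to 294), from 34 UMIs in 21 of 47 cells. Each ratio to the next cluster in this order had an interval that included 1, at 1.06 (0.838 to 1.32) and 1.14 (0.799 to 1.67). The step after CD4_T was the one neighbouring pair whose interval left out 1, at 2.45-fold (1.64 to 3.58) over Macrophage_2.

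The scale decided how the CD8 clusters compared. Over total UMIs, the ratio of CD8_T_1 to CD8_T_2 was 0.946 (0.755 to 1.19), but CD8_T_1 held 1.72 Pdcd1 UMIs per cell against 0.780 in CD8_T_2, 2.20 times as many. The median depth was 5474.5 UMIs in CD8_T_1 and 2591 in CD8_T_2. With cells thinned to 1000 UMIs, 22.8% of CD8_T_1 cells and 21.6% of CD8_T_2 cells held a Pdcd1 UMI.

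Within the T cell clusters, the count per cell was spread out. Of the 382 cells, 152 held no Pdcd1 UMI, 113 held 1, 52 held 2 and 65 held 3 or more, up to 15. That is 60.2% of T cells with a UMI at a median depth of 3856.5, against 0.156% of tumour cells at 20428, given here for comparison. Thinned to 1000 UMIs, the shares were 21.8% (17.8 to 26.3) of T cells and 0.00881% of tumour cells. The tumour cells lay below the T cells on both scales.

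Macrophage_2 stood apart from the other macrophages. It held 85.7 CPM of Pdcd1 (72.5 to 101), from 150 UMIs in 57 of 158 cells, against 2.11 CPM from 3 UMIs in Macrophage_1, a ratio of 40.6 (13.6 to 199). The macrophage clusters together held 23.3% of all Pdcd1 UMIs. Macrophage_3 followed at 25.2 CPM, DC at 16.2 CPM, MDSC_5 at 14.6 CPM and the cluster named Unknown at 12.7 CPM. CD3_T lay between Macrophage_2 and Macrophage_3, at 51.5 CPM (25.7 to 92.2). MDSC_1 to MDSC_4 held 3.54 CPM, from 3 UMIs, and 0 of the 154 cells of MDSC_2 had a UMI at a median depth of 1183, which allows up to 1.95% of cells with a UMI (3 of 154) and sets no limit on cells that express the gene. The gene had 0 UMIs in 10 of the 30 clusters, 6 of them tumour clusters.

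Outside the T cell clusters, the cells with Pdcd1 were nearly all cells that also held T cell RNA. Cd3d, Cd3e and Cd3g encode the CD3 chains and Trac the constant part of the T cell receptor alpha chain. Of 118 cells with a Pdcd1 UMI outside CD4_T, CD8_T_1 and CD8_T_2, 107 (90.7%) also held a UMI of these 4 genes, as did 230 of 230 in the T cell clusters. In Macrophage_2, Pdcd1 was 136 CPM (115 to 160) in the 91 cells with such a UMI, and 1.52 CPM, from 1 UMI, in the 67 cells without one. The median depths were 11639 and 9438 UMIs.

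The other clusters split the same way. Macrophage_3 held 69.6 CPM in 24 cells with a CD3 or Trac UMI, and 0 UMIs in 67 cells without. DC held 89.6 CPM in 22 cells with one and 1.30 CPM in 186 cells without. Unknown held 33.5 CPM in 39 cells with one and 0 UMIs in 56 cells without. CD3_T held 67.6 CPM in 105 cells with one and 0 UMIs in 33 cells without. Macrophage_2 carried 9 of the 9 T cell markers, at a summed 1026 CPM, against 92.8 CPM in Macrophage_1 and 3047 CPM in CD8_T_1, beside 8506 CPM of macrophage markers.

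The ratio of Pdcd1 to CD3 and Trac UMIs in Macrophage_2 was close to that of CD8_T_1 and above that of CD8_T_2 and CD4_T. It was 12.3 Pdcd1 UMIs per 100 (10.3 to 14.6) in Macrophage_2, against 11.3 (10.1 to 12.6) in CD8_T_1, 7.63 (6.16 to 9.37) in CD8_T_2 and 5.64 (3.87 to 7.97) in CD4_T. Macrophage_3, MDSC_5, Unknown and DC gave 9.49, 10.5, 8.33 and 14.4 UMIs per 100, and CD3_T gave 2.98 (1.48 to 5.40). The part of RNA from other cells in these levels was not tested. In Macrophage_2, Cd274 was 82.4 CPM (66.2 to 101) in cells with a CD3 or Trac UMI and 100.4 CPM (77.6 to 128) in cells without. Pdcd1lg2 was 34.8 CPM (24.6 to 47.7) with and 54.8 CPM (38.3 to 75.8) without, and for both ligands the intervals overlap.

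**Figure D2:**
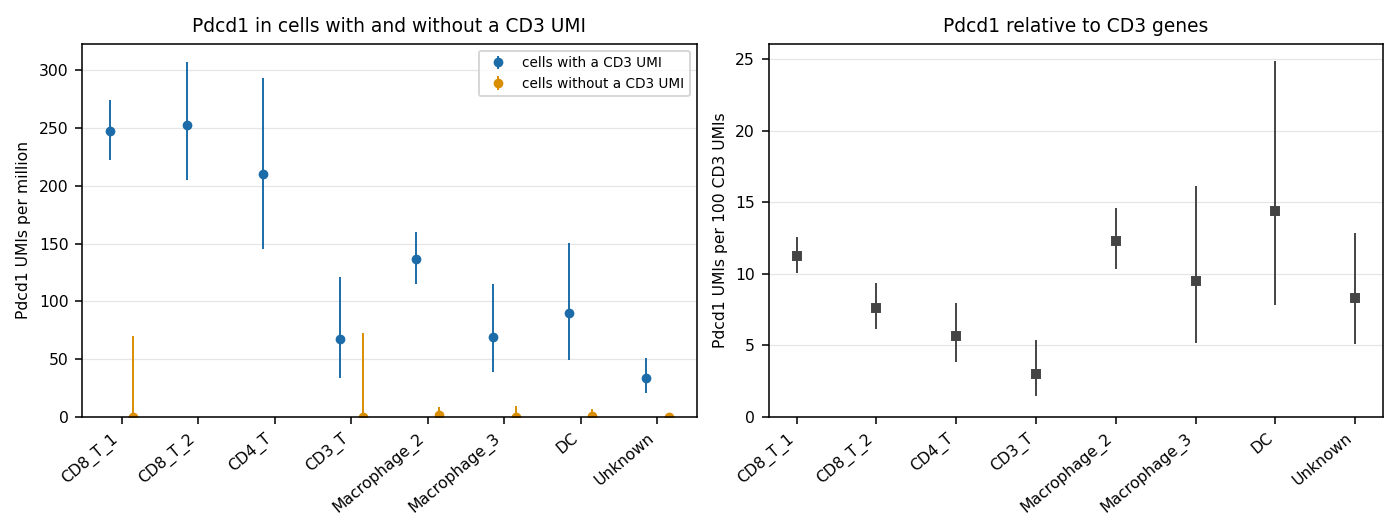
Pdcd1 in cells with and without a UMI of Cd3d, Cd3e, Cd3g or Trac, by cluster, and the number of Pdcd1 UMIs per 100 UMIs of these 4 genes, with exact 95% intervals. In Macrophage_2 the level is 136 CPM with such a UMI and 1.52 CPM without, and its ratio of 12.3 per 100 is beside 11.3 in CD8_T_1.

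Genes of the PD-1 pathway were compared between the T cell clusters and the other immune cells, counting a gene as higher or lower past 2-fold with at least 10 UMIs in the cells compared. Over all 12198 genes with that many UMIs, 14.7% were higher and 24.2% lower. Of 9 other co-inhibitory receptors and related enzymes, 5 were higher and 2 lower, with a median log2 ratio of 1.30 against 0.00 over all genes. The 5 were Tigit (9.81-fold), Cd160 (7.09-fold), Ctla4 (5.25-fold), Lag3 (2.47-fold, 2.11 to 2.88) and Btla. Havcr2, which encodes TIM-3, was 1.71-fold (1.41 to 2.07). The lower genes were Entpd1, which encodes the ATP-degrading enzyme CD39, at a ratio of 0.178 and Vsir, which encodes VISTA, at 0.301.

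The partners of PD-1 signalling were counted in the same way. Of 10, 5 were higher and 1 lower, with a median log2 ratio of 1.35. Zap70 (6.60-fold) and Lck (5.66-fold), the kinases next to the receptor, Cd3e (6.50-fold), Cd247 (6.49-fold), which encodes the zeta chain, and the co-receptor Cd28 (5.13-fold) were higher. Ptpn11, which encodes SHP2, was 1.26-fold (1.00 to 1.59), and Ptpn6, which encodes SHP1, was at a ratio of 0.547. Neither passed 2-fold. Of 16 transcription factors known to act on Pdcd1, 6 were higher and 2 lower, with a median log2 ratio of 0.94. Tox, a factor of the exhausted state, was 6.08-fold (5.04 to 7.35). Eomes was 5.62-fold, Tox2 5.07-fold, Tbx21 5.03-fold, Batf 4.10-fold and Nr4a2 3.62-fold. Nr4a1 and Maf were lower, at ratios of 0.455 and 0.269. In UMIs per cell, where 28.5% of all genes were higher and 17.7% lower, 6 co-inhibitory receptors, 5 signalling partners and 10 of these factors were higher, and 2, 0 and 1 were lower.

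Between the CD8 clusters, 12.4% of 8805 genes were higher and 6.39% lower in CD8_T_1 than in CD8_T_2. Of the co-inhibitory receptors 0 were higher and 1 lower, Lag3 at a ratio of 0.368 (0.287 to 0.473). Of the Pdcd1 regulators, 0 were higher and 2 lower, Foxo1 (0.426) and Maf (0.282). These calls hold over total UMIs only. In UMIs per cell, 68.4% of all genes were higher in CD8_T_1 and 0.307% lower, the ratios were 0.856 for Lag3, 0.992 for Foxo1 and 0.656 for Maf, and 2 co-inhibitory receptors and 6 regulators were higher with 0 lower.

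In T cells thinned to 1000 UMIs, a Pdcd1 UMI was in 13 of 36 cells with a Havcr2 UMI (36.1%, 20.8 to 53.8) and in 65 of 344 without (18.9%, 14.9 to 23.4). For Tox it was in 18 of 64 with (28.1%) and 60 of 316 without (19.0%). For Lag3 it was in 18 of 80 with (22.5%) and 60 of 300 without (20.0%). These intervals overlap between cells with and without the other gene. Ctla4 and the proliferation gene Mki67 went the other way, at 15.6% with and 21.2% without Ctla4, and 18.5% with and 21.3% without Mki67, again with overlap. The differences themselves were not tested.

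The genes whose levels followed Pdcd1 most closely over the 26 clusters of at least 50 cells, among 11037 genes with at least 100 UMIs, were Tnfrsf4 (Pearson r = 0.981 of log2 CPM with 10 added), Sh2d2a (0.978), Sh2d1a (0.974), Ifng (0.974) and Cd8b1 (0.966). Tnfrsf4 encodes the co-stimulatory receptor OX40, Sh2d1a and Sh2d2a T cell adaptor proteins, Ifng interferon gamma and Cd8b1 a chain of CD8. The clusters share a library and differ in depth, and r is a description with no p.

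Cd274 was the ligand with the wider spread, with 1473 UMIs in 853 cells and in 29 of the 30 clusters. Its level was highest in MDSC_1 to MDSC_4, at 655 CPM (602 to 712), from 556 UMIs in 282 of 707 cells. The macrophages held 101.5 CPM (91.8 to 112), from 396 UMIs in 219 of 532 cells. DC held 136 CPM (113 to 162), from 126 UMIs in 68 of 208 cells. The tumour clusters held 4.93 CPM, from 308 UMIs in 223 of 3213 cells.

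The order among the first 4 clusters was clear of counting error. MDSC_3 held 1293 CPM (1149 to 1450), with UMIs in 129 of 180 cells. MDSC_4 held 781 CPM (649 to 931), with UMIs in 57 of 128 cells. MDSC_1 held 409 CPM (335 to 496), with UMIs in 68 of 245 cells, and MDSC_2 held 172 CPM (120 to 238), with UMIs in 28 of 154 cells. Each step down was past 1, at 1.66-fold (1.34 to 2.06), 1.91-fold (1.46 to 2.50) and 2.38-fold (1.62 to 3.59). Over the whole set, MDSC_3 was 7.53-fold (5.31 to 11.0) above MDSC_2. MDSC_2 did not differ from DC beyond counting error, at 1.26-fold (0.847 to 1.84).

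Per cell, the myeloid classes came closer. MDSC_1 to MDSC_4 were 6.46-fold (5.66 to 7.36) above macrophages over total UMIs, and 1.06-fold per cell, with 0.786 UMIs per cell in MDSC_1 to MDSC_4 and 0.744 in macrophages. The median depths were 1047 UMIs in MDSC_1 to MDSC_4 and 6946.5 in macrophages. Against tumour cells, MDSC_1 to MDSC_4 were 133-fold (115 to 153) over total UMIs and 8.20-fold per cell. The size of the gap thus depends on the scale, while MDSC_1 to MDSC_4 lay above tumour cells on both.

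The share of all Cd274 UMIs in the library was 37.7% in MDSC_1 to MDSC_4, 26.9% in macrophages, 20.9% in the tumour clusters and 8.55% in DC. These shares depend on the numbers of cells of each kind, which the CD45 beads shifted, and on depth.

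**Figure D3:**
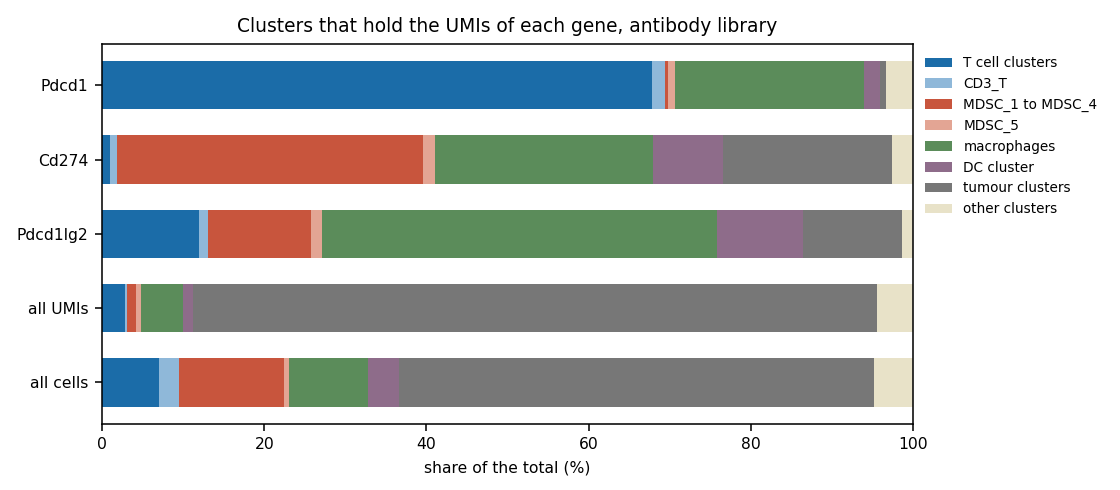
Share of all UMIs of Pdcd1, Cd274 and Pdcd1lg2 that lay in each class of cells, in percent, with the shares of all UMIs and of all cells for scale. T cell clusters hold 67.9% of Pdcd1, MDSC_1 to MDSC_4 hold 37.7% of Cd274 and macrophages hold 48.7% of Pdcd1lg2.

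Among the remaining clusters, Macrophage_1 held 122 CPM, Macrophage_3 94.0 CPM, Macrophage_2 89.1 CPM and Macrophage_4 75.6 CPM. Macrophage_1 was 1.37-fold (1.10 to 1.71) above Macrophage_2 over total UMIs and level with it per cell (0.990). DC was 1.34-fold (1.09 to 1.64) above the macrophages over total UMIs, but held 0.606 UMIs per cell against 0.744 in macrophages, a ratio of 0.814. In DC, cells that also held a neutrophil marker UMI were at 198 CPM (157 to 246) and those without at 85.7 CPM (62.3 to 115), and the part of neutrophil RNA in the DC level was not tested beyond this. MDSC_5, whose cells had a median depth of 10577 UMIs, held 53.5 CPM, below MDSC_1 to MDSC_4. CD3_T held 56.2 CPM from 12 UMIs, and B 66.0 CPM from 6 UMIs in 2 cells. The next drop between neighbours that left out 1 was MDSC_5 over Unknown, at 3.10-fold (1.70 to 5.56). The T cell clusters held 7.32 CPM (4.10 to 12.1), from 15 UMIs, and did not differ from tumour cells beyond counting error, at 1.49-fold (0.822 to 2.49), while the ratio per cell was 0.410.

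Cells of MDSC_3 with Cd274 were not a small minority. Of 180 cells, 51 held 0 UMIs, 58 held 1, 33 held 2 and 38 held 3 or more, up to 9. Thinning to 1000 UMIs left out shallower cells. It kept 405 of the 707 cells of MDSC_1 to MDSC_4, and 106 of the 180 cells of MDSC_3. In the cells kept, the share with a UMI was 65.7% in MDSC_3, 45.2% in MDSC_4, 25.7% in MDSC_1 and 12.2% in MDSC_2. The thinned shares had the same order as the CPM.

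Interferon-induced genes set MDSC_3 apart in the same cells. A list of 17 genes induced by interferon gamma summed to 11642 CPM in MDSC_3, against 2882 CPM in MDSC_1, 1856 in MDSC_2 and 1303 in MDSC_4. A list of 9 type I interferon genes summed to 10513 CPM in MDSC_3, against 2240, 2466 and 2128 CPM in MDSC_1, MDSC_2 and MDSC_4. MDSC_4 was the second cluster for Cd274 and the lowest of these 4 for the interferon gamma list, so the orders of the 2 readouts differed.

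Over the 5858 genes compared between MDSC_3 and the other 3 MDSC clusters, 6.57% were higher and 12.3% lower, with a median log2 ratio of -0.12. Of the 15 interferon gamma genes measured, 13 were higher (median log2 ratio 1.99). They included the chemokine Cxcl10 (20.3-fold), the GTPases Gbp5 (11.6-fold) and Gbp2 (7.25-fold), and Socs1 (5.30-fold), a feedback inhibitor. Of the 9 type I interferon genes 8 were higher (median 2.08), among them Ifit2 (35.4-fold), Rsad2 (4.77-fold) and Isg15 (4.24-fold). Of 17 measured genes that act on PD-L1, 4 were higher and 1 lower. The higher ones included the interferon-activated factors Irf1 (3.90-fold, 3.38 to 4.51) and Stat2 (2.38-fold), and Nfkb1 (2.65-fold), a subunit of NF-kB. Ifngr1, which encodes a chain of the interferon gamma receptor, was lower at 0.389. In UMIs per cell, 7.77% of all genes were higher and 11.1% lower, and the counts for the 3 lists were the same. These genes took part in making the clusters, so the counts describe MDSC_3 and are no test.

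Cell by cell, thinned to 1000 UMIs, 45 of 64 cells of MDSC_1 to MDSC_4 with a Gbp5 UMI held Cd274 (70.3%, 57.6 to 81.1), against 104 of 341 without (30.5%). For Cxcl10 the shares were 58.0% with and 31.5% without, for Irf1 45.8% with and 30.4% without, and for Isg15 45.4% with and 22.7% without. Within MDSC_3 alone, the shares for Gbp5 were 77.1% (62.7 to 88.0) with and 56.9% (43.2 to 69.8) without, and the intervals overlap. For Irf1 they were 70.9% with and 51.9% without in MDSC_3, for Gbp2 66.3% with and 64.7% without, and for Rsad2 63.3% with and 69.6% without. In MDSC_2, Gbp2 gave 28.1% (13.7 to 46.7) with and 8.14% (3.34 to 16.1) without, and the intervals overlap. Over all 4 clusters the shares for Gbp2 were 52.5% with and 26.5% without, and for Rsad2 53.4% with and 30.0% without. Shares over all 4 clusters do not separate differences between clusters from differences between cells of the same cluster. For Irf1 the share was lower with than without in MDSC_1 (21.2% and 27.8%) and MDSC_4 (42.1% and 49.1%). In MDSC_2 it was higher (16.2% and 12.3%). For Isg15 it was higher with than without in MDSC_1 (33.3% and 19.3%), MDSC_2 (18.2% and 7.69%) and MDSC_4 (51.4% and 43.6%). The intervals overlap in each of these pairs.

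**Figure D4:**
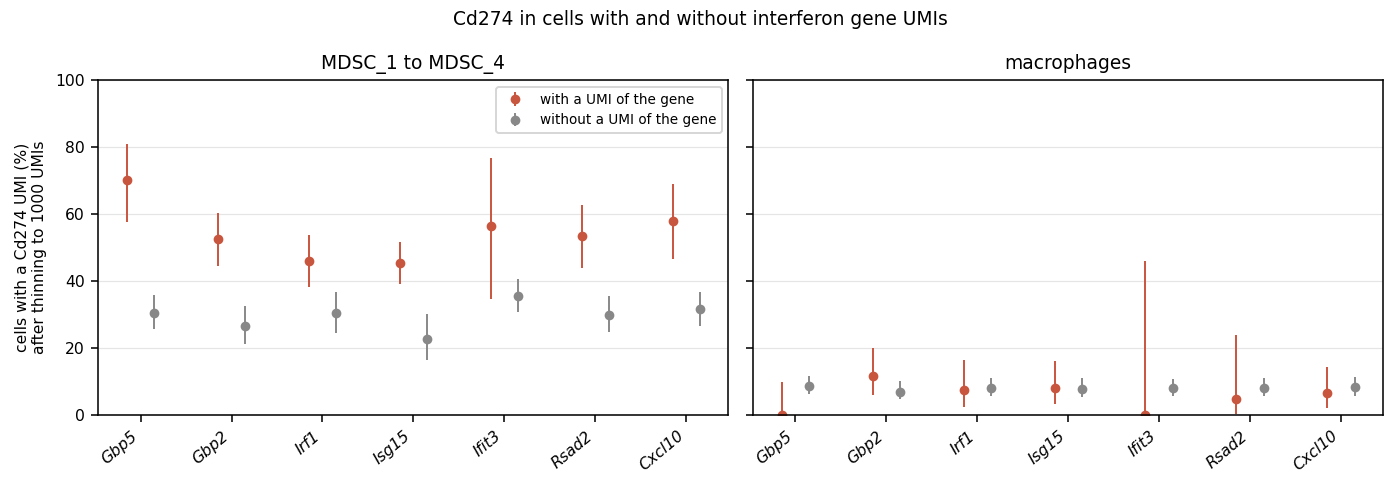
Share of cells with a Cd274 UMI among cells with and without a UMI of another gene, after thinning each cell to 1000 UMIs, in percent with exact 95% Clopper-Pearson intervals. For Gbp5 in MDSC_1 to MDSC_4 (left) the share is 70.3% with and 30.5% without, and in macrophages (right) 0 of 36 cells with and 8.52% without.

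Against all other immune cells, MDSC_1 to MDSC_4 had 11.9% of 12198 genes higher and 37.3% lower, with a median log2 ratio of -0.54. Of 19 PD-L1 regulators, 5 were higher and 3 lower. Over total UMIs, the higher ones included Irf1 (7.60-fold), Jak2 (5.04-fold), which encodes an interferon receptor kinase, Cmtm6 (4.47-fold), whose product keeps PD-L1 at the cell surface, and Irf9. The lower ones were Myc (0.0810), Cmtm4 (0.283) and Cops5 (0.382). Per cell, the ratios were 1.58 for Irf1, 1.05 for Jak2, 0.930 for Cmtm6 and 0.485 for Irf9, so the last 2 turned direction. On that scale 1.98% of all genes were higher and 89.4% lower, with 0 regulators higher and 15 lower. Of 9 measured ligands of other T cell checkpoints, 2 were higher and 1 lower. Cd80, whose product binds CD28, CTLA-4 and also PD-L1 on the same cell, was 9.69-fold (7.60 to 12.4) at 170 CPM in MDSC_1 to MDSC_4 and 17.5 CPM in other immune cells, and 2.01-fold per cell. Icosl was 2.68-fold over total UMIs and 0.558 per cell, and Cd86 was lower at 0.154. Per cell, 1 of these ligands was higher and 7 were lower. Of the 2 other binding partners of the PD-1 ligands, Cd80 was higher, and Rgmb, which binds PD-L2, had 0 UMIs in MDSC_1 to MDSC_4.

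Among the 11 tumour clusters, Tumor_9 stood highest for Cd274, at 15.5 CPM (12.3 to 19.3), from 80 UMIs in 60 of 248 cells. The other tumour clusters lay between 1.20 and 7.60 CPM, with Tumor_5 (7.60 CPM), Tumor_2 (5.81 CPM) and Tumor_7 (5.12 CPM) next. Tumor_9 was 3.91-fold (2.99 to 5.07) above the other tumour clusters together. Its cells held a median of 20880.5 UMIs against 20428 in all tumour clusters, so depth was near. Thinned to 1000 UMIs, 1.56% of its cells held a UMI.

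Marker lists of leukocytes were compared between Tumor_9 and the other tumour clusters. Ptprc, which encodes CD45, was 1.17 CPM in Tumor_9 and 0.404 to 1.93 CPM in the other tumour clusters. T cell markers summed to 2.91 CPM (1.43 to 13.3 in the other tumour clusters), neutrophil markers to 11.5 CPM (9.21 to 23.0), monocyte markers to 264 CPM (189 to 291) and macrophage markers to 7276 CPM (2816 to 12544). The macrophage list includes Apoe beside the C1q genes, Adgre1 and Mrc1. In Tumor_9 the C1q genes gave 37 of the 37455 UMIs of that list, and Adgre1 gave 0. Dendritic cell markers summed to 233 CPM from 3 of 8 markers, above the other tumour clusters (10.5 to 117). The 3 were Ccr7, Fscn1 and H2-Ab1, while Flt3, Xcr1, Clec9a, Cd209a and Siglech had 0 UMIs in Tumor_9. The part of dendritic cell RNA in the Cd274 level was not tested. Cd274 was 16.6 CPM in Tumor_9 cells with a neutrophil marker UMI and 15.3 CPM in those without, and 10.4 CPM in those with a C1q UMI and 16.5 CPM in those without. With cells holding a Ptprc UMI left out, a setting chosen after seeing the data, the ratio to the other tumour clusters was 3.97.

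In Tumor_9, 4.76% of 13435 genes were higher than in the other tumour clusters and 3.83% lower. Of the 17 interferon gamma genes 16 were higher, with a median log2 ratio of 2.13 against 0.08 over all genes. Gbp5 was 16.1-fold, Cxcl9 14.1-fold, Cxcl10 12.4-fold and Gbp2 8.14-fold, and the remaining gene was Irf8. Of the 9 type I interferon genes 5 were higher (median 1.01). Of 19 PD-L1 regulators 3 were higher and 0 lower, among them Irf1 (2.60-fold) and Stat2 (2.02-fold). In UMIs per cell, 5.48% of all genes were higher and 3.21% lower, and the counts for the 3 lists were the same.

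Across clusters, MDSC_3 was highest for both the interferon gamma list and Cd274, but other clusters departed from a shared order. Correlations were computed over the tumour clusters only. Over the 11 tumour clusters, Pearson's r between the Cd274 level and the list was 0.874 and Spearman's rho 0.482. Without Tumor_9 they were 0.316 and 0.309 over 10 clusters, so the relation rested on that cluster. Fibroblast&Endothelial_2 held 4419 CPM of the list and 3.10 CPM of Cd274. Macrophage_1 held 4929 CPM of the list with 122 CPM of Cd274, and MDSC_4 held 1303 CPM of the list with 781 CPM of Cd274. The clusters share a library, so these values are a description.

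**Figure D5:**
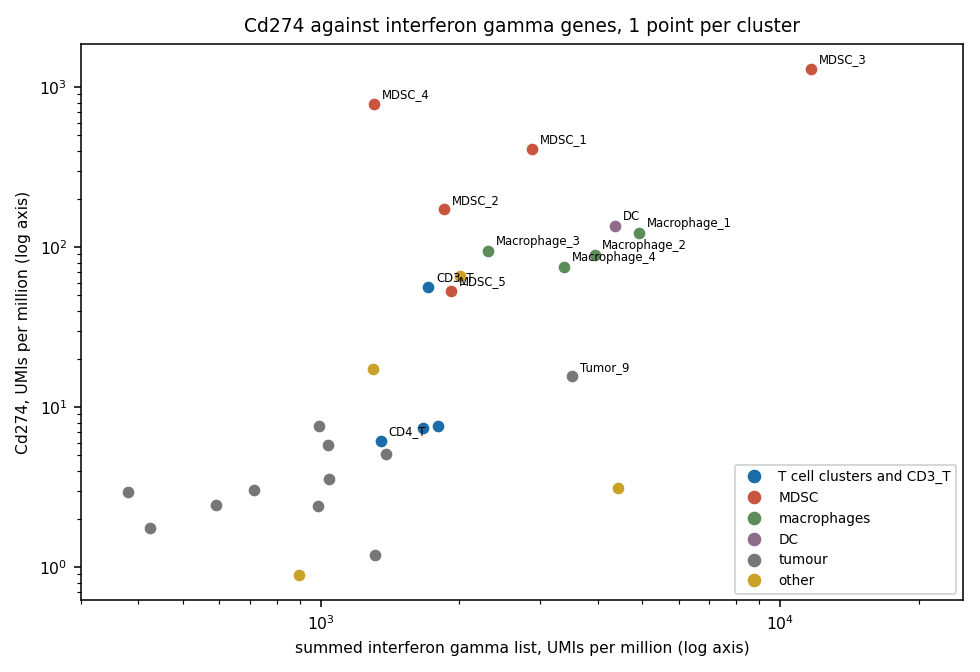
Cd274 level against the summed level of 17 interferon gamma induced genes in each cluster of the antibody library, both in CPM on log axes. MDSC_3 is at the top right (1293 and 11642 CPM), MDSC_4 is high for Cd274 at 1303 CPM of the list, and Tumor_9 (15.5 and 3518 CPM) lies to the right of the other tumour clusters.

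In tumour cells thinned to 1000 UMIs, 6 of 203 cells with a Gbp2 UMI held Cd274 (2.96%, 1.09 to 6.32), against 11 of 2972 without (0.370%). For Cxcl10 the shares were 3.60% with and 0.395% without. These shares pool all tumour clusters, and Tumor_9 was above the others for Gbp2 (8.14-fold) and for Cd274 (3.91-fold). They therefore do not separate differences between clusters from differences between cells of 1 cluster. In macrophages, 0 of 36 cells with a Gbp5 UMI held Cd274, against 38 of 446 without (8.52%), and Isg15 gave 8.14% with and 7.83% without. The split seen for Gbp5 over MDSC_1 to MDSC_4 was thus not seen in macrophages, where it rests on 36 cells with a Gbp5 UMI. Of the thinned MDSC_1 to MDSC_4 cells with one, 48 lay in MDSC_3. The difference between the classes was not tested.

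The genes whose cluster levels were most like Cd274 were Tnf (r = 0.966), Ebi3 (0.965), Ccrl2 (0.963), Ptafr (0.961) and Cd300lf (0.960). Tnf encodes tumour necrosis factor, Ebi3 a shared subunit of interleukins 27 and 35, Ccrl2 a chemerin receptor, Ptafr the receptor for platelet-activating factor and Cd300lf an inhibitory myeloid receptor. Tnf was at 638 CPM in MDSC_3.

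Pdcd1lg2 was the gene with the fewest UMIs, 384 in 285 cells, and 221 of those cells held 1 UMI. Macrophages held 187 of them (48.7%) at 47.9 CPM, from 119 of 532 cells. MDSC_1 to MDSC_4 held 12.8% of the UMIs at 57.8 CPM, tumour clusters 12.2% at 0.752 CPM, T cell clusters 12.0% at 22.5 CPM and DC 10.7% at 44.2 CPM. The fibroblast and endothelial clusters held 0 UMIs in 150 cells.

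By cluster, MDSC_4 was highest, at 176 CPM (117 to 255), from 28 UMIs in 23 of 128 cells. Macrophage_1 followed at 69.6 CPM (56.6 to 84.7), from 99 UMIs in 59 of 178 cells. The ratio of MDSC_4 to Macrophage_1 was 2.53 (1.60 to 3.89), the only step between neighbours in the order whose interval left out 1. Per cell the order turned round, with 0.219 UMIs in MDSC_4 and 0.556 in Macrophage_1, a ratio of 0.393. The share of cells thinned to 1000 UMIs was 13.9% in MDSC_4 and 6.10% in Macrophage_1.

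Within its own class MDSC_4 differed from the rest. Its level was 5.79-fold (3.17 to 10.7) above MDSC_1 to MDSC_3, where MDSC_3 held 44.3 CPM, MDSC_2 23.8 CPM and MDSC_1 23.6 CPM, from 10, 5 and 6 UMIs. Cells of MDSC_4 without a C1q UMI, the macrophage complement genes C1qa, C1qb and C1qc, were at 184 CPM. The cluster held 0 of the 9 T cell markers, 176 CPM of monocyte markers and 1045 CPM of macrophage markers beside its neutrophil markers. MDSC_3 and MDSC_4 thus ranked in opposite order for the ligands, with MDSC_3 above MDSC_4 for Cd274 and below it for Pdcd1lg2.

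Among macrophages, Macrophage_1 was 1.65-fold (1.21 to 2.26) above Macrophage_2, which held 42.3 CPM, and 5.18-fold (2.53 to 12.3) above Macrophage_3, which held 13.4 CPM. Macrophage_4 held 45.3 CPM from 6 UMIs. Over total UMIs DC did not differ from macrophages beyond counting error, with a ratio of 0.922 (0.641 to 1.30), but DC held 0.197 UMIs per cell against 0.352 in macrophages, a ratio of 0.561. In DC, Pdcd1lg2 was 59.7 CPM in the 101 cells with a C1q UMI and 21.4 CPM in the 107 without, from 33 and 8 UMIs. Without the DC cells that held a C1q UMI, a setting chosen after seeing the data, the ratio to macrophages was 0.446 (0.190 to 0.897).

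The T cell clusters together held the gene below macrophages, at 0.468 times their level (0.332 to 0.650). This did not hold for CD4_T, at 55.6 CPM (25.4 to 106) from 9 UMIs against 47.9 CPM in macrophages. CD8_T_1 held 20.1 CPM from 30 UMIs and CD8_T_2 17.9 CPM from 7. In T cells with a C1q UMI the level was 24.6 CPM and in those without 21.7 CPM. In the tumour, Tumor_1 held 23 of the 47 UMIs, in 22 of 460 cells, at 2.52 CPM, 5.61-fold (3.03 to 10.4) above the other tumour clusters. Tumor_9, the highest tumour cluster for Cd274, held Pdcd1lg2 in 3 of 248 cells.

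Interleukin 4 acts through STAT6 to induce PD-L2 in macrophages, so genes of that response were listed. In macrophages, 11.1% of 12198 genes were higher than in the other immune cells and 12.1% lower. Of 10 listed genes 5 were higher and 1 lower, with a median log2 ratio of 1.15 against -0.04 over all genes. Retnla was 35.4-fold, the arginase gene Arg1 23.8-fold, the mannose receptor gene Mrc1 13.3-fold, the chemokine Ccl24 5.28-fold and the lectin Mgl2 3.63-fold. Per cell, 7 were higher and 0 lower, where 64.5% of all genes were higher and 2.09% lower. Il4ra, the receptor chain, was 1.35-fold and Stat6 was at a ratio of 0.915. In DC, where 4.47% of genes were higher and 15.2% lower, 4 of the 10 were higher and 2 lower. Chil3 was 20.4-fold, Ccl22 13.9-fold, Ccl17 13.7-fold and Mgl2 2.16-fold, and Arg1 (0.132) and Retnla (0.196) were lower. In UMIs per cell, 5.42% of all genes were higher and 13.2% lower, and 4 and 2 of the listed genes.

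In single macrophages, the listed genes did not share 1 direction with Pdcd1lg2. Thinned to 1000 UMIs, 0 of 98 cells with an Mrc1 UMI held Pdcd1lg2, against 16 of 384 without (4.17%). For Ccl24 it was 13 of 278 with (4.68%) and 3 of 204 without (1.47%), and for Arg1 1.67% with and 3.55% without. With 16 cells in all, these shares rest on few UMIs.

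The genes most like Pdcd1lg2 over clusters were Dennd1b (r = 0.939), Cyth1 (0.933), Efhd2 (0.924), Tnfrsf1b (0.921) and Adam8 (0.913). Most of these 5 changed with the setting: 1 was kept with a pseudocount of 1, 2 with 50 and 2 with all clusters. Dennd1b and Cyth1 encode exchange factors for small GTPases, Efhd2 a calcium-binding protein, Tnfrsf1b a receptor for tumour necrosis factor and Adam8 a membrane protease.

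The ligands were found in the same cells at times. Among macrophages, 68 of 532 cells held both, 151 held Cd274 alone and 51 Pdcd1lg2 alone. In MDSC_1 to MDSC_4, 21 of 707 cells held both, 261 Cd274 alone and 19 Pdcd1lg2 alone. In DC, 13 of 208 cells held both, 55 Cd274 alone and 17 Pdcd1lg2 alone. Receptor and ligand shared cells as well. Pdcd1 and Pdcd1lg2 were both found in 28 cells of the T cell clusters, and Pdcd1 and Cd274 in 39 macrophages. Of these 39, 34 lay in Macrophage_2. Among all macrophages with a Pdcd1 UMI, 66 also held a CD3 or Trac UMI and 2 did not. Deeper cells are more likely to hold any pair, and these counts are not thinned.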

How the data were processed

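Single-cell RNA was measured in tumours of antibody-treated and IgG-treated mice, 1 library per group. Per the submitters' processing notes, the counter was Cell Ranger 2.1.1. Its genome build, the filters on cells and the way of clustering were not given in the sources used here. The authors deposited a cluster name for each cell and expression values that are the natural log of 1 plus 10000 times a UMI count over the cell's total. All 15274637 values above 0 of the antibody library gave whole UMIs within 0.001, and their sums equalled the depth in 5482 cells.

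From these UMIs, CPM with exact Poisson intervals, shares with Clopper-Pearson intervals and exact conditional ratio intervals (95%) were computed with Python 3.11.15, numpy 2.4.6, scipy 1.17.1 and pandas 2.3.3, and plotted with matplotlib 3.10.9. The steps were tested on simulated data. Thinned shares are expected values after drawing 1000 UMIs per cell, or a random draw for pairs of genes, and shallower cells were left out. Scrublet in scanpy 1.11.5 marked 3 of 5482 cells (0.0547%), so doublets were kept. A count of 0 was read as at most 3 counts. Genes were called past 2-fold with at least 10 UMIs. Named genes were the 3 genes, members of the 9 lists that a sentence counts, and the 5 genes most correlated with each; ribosomal, mitochondrial, haemoglobin, immunoglobulin and T cell receptor segment genes and unnamed models were left out. The 3 genes and the lists were chosen with earlier results of these data known. Alternatives were depth minimums, averages over single cells, thinning to other depths, other cluster groupings and pseudocounts, doublets left out, UMIs per cell, and cells with markers of another lineage left out. Siglec15 was not analysed here, and values of 1 listed gene are not reported here.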

Additional observations from a re-analysis of the deposited data

How the results depend on the processing

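No paired analysis was possible because each group had 1 library. There were 93 alternatives over 50 results. Of these, 58 kept the value within its interval or a count of genes within 1.5 times, 33 moved it further and 2 reversed it. The setting without doublets left out at most 3 of 5482 cells and could hardly move a value. All of its alternatives are among the 58. The Cd274 level of MDSC_1 to MDSC_4 (655 CPM) was 580 CPM in cells with at least 2000 UMIs, of which there were 50, and 459 CPM with MDSC_5 put back. In cells of at least 2000 UMIs the ratio of MDSC_3 to the other 3 MDSC clusters (3.05) was 2.21, from 14 cells of MDSC_3. The ratio of Pdcd1 in T cell clusters to other immune cells (7.49) was 15.3 as a mean over cells. Thinned to 500 and 2000 UMIs, the share with a UMI was 11.8% and 37.6% for Pdcd1 in T cells, 23.5% and 59.2% for Cd274 in MDSC_1 to MDSC_4, and 44.8% and 79.7% in MDSC_3, since a share follows the UMIs kept.

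Settings chosen after seeing the data moved the rest. Without cells that held a CD3 or Trac UMI, Pdcd1 in Macrophage_2 (85.7 CPM) was 1.52 CPM, and the ratio of T cell clusters to other immune cells was 173 (78.8 to 473). Per cell, the ratio of MDSC_1 to MDSC_4 over macrophages (6.46) was 1.06, that of CD8_T_1 over CD8_T_2 (0.946) was 2.20, which crossed 1, and that of Pdcd1 in T cell clusters over other immune cells was 10.3. Per cell, 2 ratios turned direction: Cd274 in DC over macrophages (1.34) was 0.814 and Pdcd1lg2 in MDSC_4 over Macrophage_1 (2.53) was 0.393. The Pdcd1lg2 ratio of DC to macrophages was 0.561 per cell. Without DC cells that held a C1q UMI, the Pdcd1lg2 ratio of DC to macrophages (0.922) was 0.446. Counts of list genes per cell moved in 4 comparisons. In T cells, 10 Pdcd1 regulators were higher and 1 lower (6 and 2 over total UMIs), and 0 signalling partners were lower (1). In CD8_T_1 over CD8_T_2, 2 co-inhibitory receptors were higher and 0 lower (0 and 1), and 6 regulators were higher and 0 lower (0 and 2). In MDSC_1 to MDSC_4, 0 PD-L1 regulators were higher and 15 lower (5 and 3), 1 checkpoint ligand was higher and 7 lower (2 and 1), and 1 alternative partner was lower (0). In macrophages, 0 of the interleukin 4 genes were lower (1). Counts for MDSC_3, Tumor_9 and DC were the same per cell. Of the 15 genes named as most alike, 5 were kept with a pseudocount of 1, 9 with 50 and 8 with all clusters. In that order of settings, 2, 4 and 3 of 5 were kept for Pdcd1, 2, 3 and 3 for Cd274, and 1, 2 and 2 for Pdcd1lg2. At 1 to 10 UMIs per cluster, as for Pdcd1lg2 in MDSC_1 to MDSC_3, intervals are wide.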
